A study of Mus musculus and Homo sapiens with 15 samples.

Results

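C-to-U editing was followed in 8 genes of the CELF and ELAVL families of RNA-binding proteins: Celf1, Celf2, Celf4, Celf5, Elavl1, Elavl2, Elavl3 and Elavl4. They were taken by gene name from the labels of the edit clusters, and they are 8 of 15440 genes with at least 1 edited read in mouse brain. The clusters that carry their names numbered 1026 to 1569 per library, of 139884 to 229430 in all. The data are 9 RNA sequencing libraries of brain sections from 2-month-old female wild-type C57BL/6J mice, which carried no transgene or deleted allele. Every section was fixed, with paraformaldehyde according to the sample labels. The paper reports brain slices fixed in either methanol or paraformaldehyde, although its methods text for tissue names methanol alone. In the 3 RBFOX2-INSCRIBE libraries an antibody to RBFOX2 recruited the deaminase APOBEC1, fused to a nanobody that binds the antibody, to RNA in the section. In the 3 enzyme-only libraries the fusion was added with no antibody, and in the 3 buffer-only libraries no enzyme was added. Each library is 1 coronal slice, and the whole study used no more than 2 mice, with no record here of which slice came from which, so the p-values measure the spread between slices, which may be technical, and not between animals.

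CELF proteins bind GU-rich RNA and act on alternative splicing in the nucleus and on mRNA decay and translation in the cytoplasm. ELAVL proteins, also called Hu proteins, bind AU-rich and U-rich elements in introns and 3′ untranslated regions (3′ UTRs) and are best known for stabilising mRNAs. Elavl2, Elavl3 and Elavl4 are mainly neuronal, whereas Elavl1 (HuR) is found in most cells. RBFOX2 regulates splicing and is known to bind UGCAUG, and several neuronal splicing factors are known to have transcripts that other such factors bind.

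The sequences that carry the results are those of Celf2 around UGCAUG, read from the RefSeq genome of build GRCm38 (mm10) on the strand of the gene, 5′ to 3′ and as DNA. Capitals mark TGCATG and each C that was listed as edited in at least 1 of the 9 libraries. The first 5 are the edit clusters of Celf2 in the confident RBFOX2-INSCRIBE list that hold the motif, at chr2:6607040-6607144, chr2:6913160-6913234, chr2:6959256-6959330, chr2:6889280-6889384 and chr2:7370879-7370923, all on the minus strand.
Celf2 motif cluster 1: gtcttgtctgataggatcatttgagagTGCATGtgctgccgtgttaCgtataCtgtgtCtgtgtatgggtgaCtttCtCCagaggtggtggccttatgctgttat
Celf2 motif cluster 2: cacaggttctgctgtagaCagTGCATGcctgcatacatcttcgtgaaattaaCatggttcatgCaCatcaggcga
Celf2 motif cluster 3: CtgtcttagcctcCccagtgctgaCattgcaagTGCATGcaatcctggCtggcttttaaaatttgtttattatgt
Celf2 motif cluster 4: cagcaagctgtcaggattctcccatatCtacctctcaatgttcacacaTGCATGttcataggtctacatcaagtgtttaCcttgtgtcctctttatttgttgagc
Celf2 motif cluster 5: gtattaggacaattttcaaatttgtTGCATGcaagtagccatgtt
Cluster 1 lies in an exon of a Celf2 transcript annotated as a retained intron, and clusters 2 to 5 lie in introns. A pair of other intronic stretches, chr2:6771316-6771471 and chr2:7149269-7149374, was chosen after the values were seen, the first for a row of 6 motifs of which the first 2 overlap and the second for edited reads in every RBFOX2-INSCRIBE library.
Celf2 row of motifs: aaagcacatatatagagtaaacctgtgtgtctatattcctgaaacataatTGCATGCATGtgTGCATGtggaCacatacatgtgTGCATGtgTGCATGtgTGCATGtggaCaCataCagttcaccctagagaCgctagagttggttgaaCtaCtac
Celf2 single motif: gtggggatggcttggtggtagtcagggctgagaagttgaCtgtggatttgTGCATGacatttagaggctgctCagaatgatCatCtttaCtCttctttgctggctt
A pair of clusters without the motif, both in the Celf2 intron that also holds motif clusters 2 and 4, is shown for comparison: the intronic cluster of the cleaned RBFOX2-INSCRIBE list with no UGCAUG within 50 nt that had the most edited reads, at chr2:6913610-6913714, and the 1 cluster found in all 3 confident lists, at chr2:6894725-6894769.
Celf2 cluster without the motif: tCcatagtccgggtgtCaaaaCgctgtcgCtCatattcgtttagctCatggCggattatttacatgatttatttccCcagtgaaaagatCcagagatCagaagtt
Celf2 cluster in every list: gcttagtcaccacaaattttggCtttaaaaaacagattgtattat

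Celf2 held most of the editing of the 8 genes. An edited read is a read with a C-to-U change at a listed site, summed over the sites of a gene that had a confidence score above 0.5 and an edit fraction below 0.8, so a read edited at several cytidines counts once at each. Over the 9 libraries the 8 genes had 15495 edited reads, of which Celf2 (ENSMUSG00000002107.18, chr2:6539694-7509563, minus strand) had 73.8% and Celf4 (ENSMUSG00000024268.16, chromosome 18) 12.7%. Celf2 ranked 4 among all genes and Celf4 ranked 91. In CPM, the edited reads of a gene scaled to a total of 1000000 edited reads in genes per library, Celf2 had 5221, 4902 and 5285 in the RBFOX2-INSCRIBE libraries, 4614, 5038 and 5290 in the enzyme-only libraries and 4643, 4997 and 5395 in the buffer-only libraries. The 3 groups overlapped, and the libraries without enzyme had as many as those with it on this scale. Celf4, the gene of a neuronal CELF protein, had 893, 959 and 747 CPM with antibody, 902, 818 and 701 with enzyme only and 1017, 730 and 1031 with buffer. Celf1, the founding member of the CELF family, had 206, 295 and 231, then 232, 329 and 231, and then 199, 200.1 and 202 in the same order of groups. The remaining genes each had between 51.2 and 260 CPM in every library, and their raw numbers went from 12 edited reads for Elavl3 in buffer-only replicate 3 to 73 for Elavl2 in RBFOX2-INSCRIBE replicate 2.

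**Figure D1:**
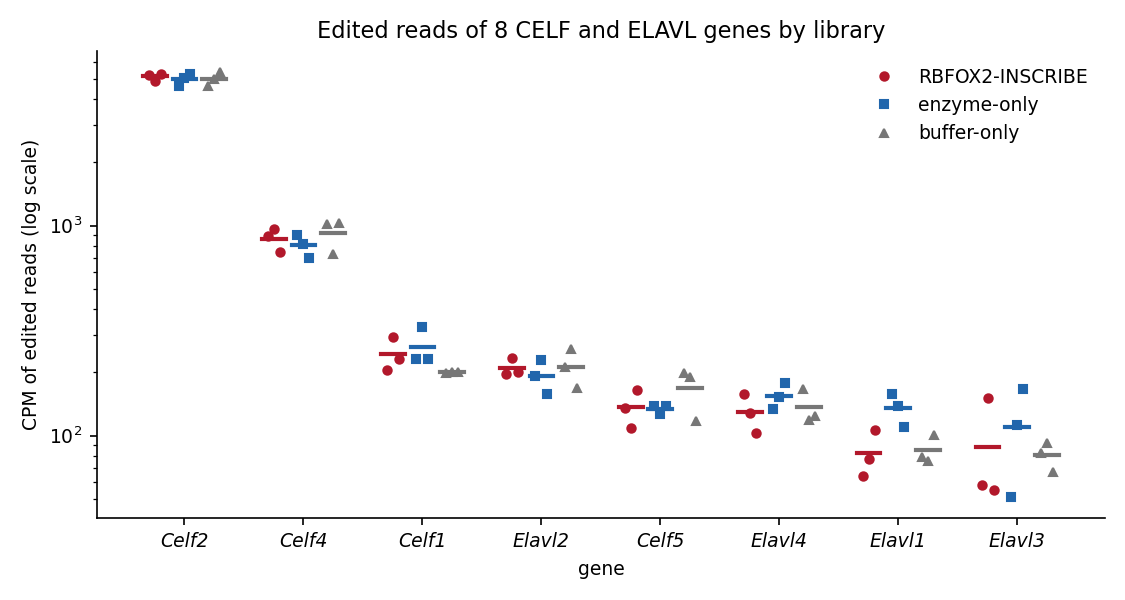
CPM of edited reads (log axis) for the 8 genes, with 1 point per library, 3 libraries per group, and a short line at each group's mean. Celf2 lies between 4614 and 5395 in every library and Celf4 between 701 and 1031, and the 3 groups overlap in both.

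The genes differ in length, from 23.5 kb for Celf5 to 970 kb for Celf2. In CPM per kb of gene, the order of the mean levels was Celf5 6.23, Celf2 5.20, Celf4 3.13, Celf1 2.98, Elavl1 2.52, Elavl3 2.51, Elavl2 1.37 and Elavl4 0.946. Between neighbours in that order, only the ranges of Celf2 and Celf4 did not overlap over the 9 libraries. Celf5, a brain-enriched CELF gene on chr10:81459227-81482709, was above Celf2 in 7 of 9 libraries.

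The split between exons and introns also differed from gene to gene. Exons held 4.45% of the edited reads of Celf2 and 5.04% of those of Celf4, against 18.6% in Celf5, 25.3% in Elavl2, 27.5% in Elavl4, 29.2% in Celf1, 43.7% in Elavl3 and 57.5% in Elavl1. Elavl1, the ubiquitous member (chr8:4285382-4325413, minus strand), had more exonic than intronic edited reads in each RBFOX2-INSCRIBE and enzyme-only library, but fewer in buffer-only replicates 1 (3 against 16) and 2 (6 against 8). These shares rest on the site filter, which kept 97.0% of intronic but 24.7% of exonic edited reads over all genes. Among the 8 genes it kept from 4.67% (Celf5) to 52.4% (Elavl2) of the exonic edited reads. Elavl3 shares part of its locus with the same-strand gene Gm49318, and sites in both were left out.

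RBFOX2-INSCRIBE against enzyme-only libraries asks which RNAs took a larger share of the edited reads of a library when the antibody was present. None of the 8 genes was called over its whole length, where edgeR called 59 of 6357 genes tested (0.928%) at a Benjamini-Hochberg adjusted p under 0.05. The 8 log2 changes had a median of 0.01, with 4 above 0, and over all genes the median was -0.01 with 49.4% above 0. Celf2 had 1625, 1529 and 1443 edited reads with antibody and 1172, 1348 and 1306 with enzyme only, a log2 change of 0.10 ± 0.09 (SE; edgeR adjusted p = 0.709). Celf4 changed by 0.16 ± 0.13 (adjusted p = 0.683), Elavl2 by 0.18 ± 0.20 (0.801), Celf5 by 0.07 ± 0.23 (0.948), Celf1 by -0.06 ± 0.18 (0.948), Elavl4 by -0.19 ± 0.23 (0.824) and Elavl3 by -0.24 ± 0.32 (0.844). Counting every listed site, with no filter, gave Celf2 a change of 0.28 with an edgeR adjusted p = 0.0498, where 2.11% of genes were called, and from buffer to enzyme a change of -0.15 (adjusted p = 0.490), where 1.7% were called.

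Elavl1 had the smallest p of the 8 genes. It had 64.3, 76.9 and 106 CPM with antibody, 158, 138 and 109 with enzyme only and 78.8, 75.7 and 101 with buffer. Every RBFOX2-INSCRIBE library and every buffer-only library lay below every enzyme-only library. The change from enzyme-only to RBFOX2-INSCRIBE was -0.66 ± 0.26 (unadjusted p = 0.0151, edgeR adjusted p = 0.255), on raw numbers of 14 to 40 edited reads per library. Of all genes tested, 9.64% had all 3 RBFOX2-INSCRIBE libraries below all 3 enzyme-only libraries.

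Enzyme-only against buffer-only libraries asks which genes took a larger or smaller share of the edited reads when the free enzyme was added. Each library was scaled to its own edited reads, so an overall rise from the enzyme does not show in these changes. None of the 8 genes was called there either, where edgeR called 42 of 6357 genes (0.661%), and 2 of the 8 had an unadjusted p under 0.05 (Celf4 and Elavl1) against 1 in the other comparison. DESeq2's Wald test called none of the 8 in either comparison. Elavl1 changed by 0.58 ± 0.28 (edgeR adjusted p = 0.436) and Celf1 by 0.31 ± 0.20 (adjusted p = 0.606), each with all enzyme-only libraries above all buffer-only libraries, a pattern shown by 10.8% of genes. Celf4 changed by -0.29 ± 0.13 (adjusted p = 0.395), Celf5 by -0.44 ± 0.24 (0.530), Elavl2 by -0.23 ± 0.21 (0.755), Elavl3 by 0.35 ± 0.35 (0.775), Elavl4 by 0.08 ± 0.24 (0.957) and Celf2 by -0.10 ± 0.09 (0.752). The 2 comparisons share the enzyme-only libraries, so the opposite signs of Elavl1 in them are not independent of each other. Fewer cells that express a gene and less RNA per cell cannot be told apart in these slices, and a level of edited reads also depends on how much RNA of a gene was sequenced.

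Exonic and intronic edited reads were then tested as separate features, 7259 in all, of which edgeR called 94 (1.29%) between RBFOX2-INSCRIBE and enzyme-only libraries and 59 (0.813%) between enzyme-only and buffer-only libraries. No exonic or intronic feature of the 8 genes was called in either comparison, with 2 and 4 of them at an unadjusted p under 0.05. With antibody against enzyme only, 1 of 7 exonic features was above 0 (median -0.52), where all genes had a median of -0.25 with 27.3% above 0. In introns 5 of 8 were above 0 (median 0.04), where all genes had a median of 0.28 with 80.01% above 0. From buffer to enzyme, 7 of 7 exonic features were above 0 (median 0.76, all genes 0.19 with 65.7% above 0) and 1 of 8 intronic ones (median -0.25, all genes -0.26 with 23.4%). Exonic sites of Celf5 were too few to test.

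The exonic feature with the smallest p was that of Elavl1 from buffer to enzyme. It had 3, 6 and 12 exonic edited reads in buffer-only libraries, 25, 23 and 16 in enzyme-only libraries and 11, 16 and 19 in RBFOX2-INSCRIBE libraries, and the change from buffer-only to enzyme-only was 1.11 ± 0.43 (edgeR adjusted p = 0.237). Elavl4, the HuD gene, had 4, 1 and 7 exonic edited reads with buffer, 14, 19 and 10 with enzyme only and 16, 8 and 9 with antibody (buffer to enzyme 1.35 ± 0.54, adjusted p = 0.256). Elavl2, the HuB gene, had 46, 61 and 44 intronic edited reads with antibody, 30, 38 and 27 with enzyme only and 42, 35 and 26 with buffer. Its intronic change was 0.52 ± 0.25 with antibody against enzyme only (adjusted p = 0.314) and -0.57 ± 0.26 from buffer to enzyme (adjusted p = 0.331). In Celf2 the 1 exonic change above 0, at 0.47 ± 0.21 (adjusted p = 0.286), became -0.20 ± 0.33 when only exons of protein-coding transcripts counted as exonic, a definition under which motif cluster 1 is intronic.

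**Figure D2:**
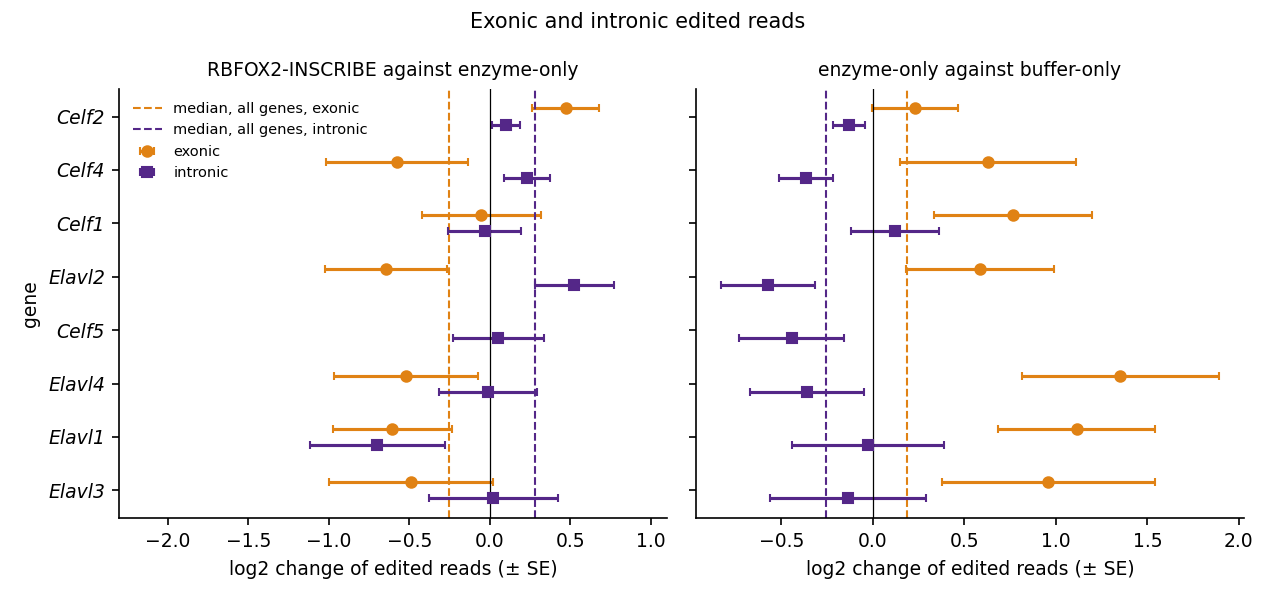
Log2 change of exonic (circles) and intronic (squares) edited reads of the 8 genes with their standard errors, for RBFOX2-INSCRIBE against enzyme-only libraries (left) and enzyme-only against buffer-only libraries (right), n = 3 libraries per group. Dashed lines are the medians over all genes, -0.25 (exonic) and 0.28 (intronic) on the left and 0.19 and -0.26 on the right.

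Near UGCAUG, the binding sequence of RBFOX2, Celf2 differed between the groups. This division of the edited reads was chosen after the data were seen. The motif was searched as the letters UGCAUG on the transcribed strand, overlaps included, and Celf2 holds 425 copies (0.438 per kb). Within 50 nt of a copy Celf2 had 105, 82 and 115 edited reads in the RBFOX2-INSCRIBE libraries, 45, 49 and 55 in the enzyme-only libraries and 29, 45 and 29 in the buffer-only libraries. All RBFOX2-INSCRIBE values lay above all others, here in raw numbers, and other genes with that pattern near the motif were not counted. As a share of the edited reads of Celf2 the near reads were 6.46%, 5.36% and 7.97% with antibody, 3.84%, 3.64% and 4.21% with enzyme only and 2.59%, 4.87% and 3.01% with buffer. The same share over all genes was 5.37% to 5.98%, 3.52% to 3.65% and 3.31% to 3.42%.

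The change of Celf2 near UGCAUG was 1.83-fold, a log2 change of 0.87 ± 0.19 (edgeR adjusted p = 0.00674), in a fit of near and far edited reads of each gene in which 109 of 6378 features were called (1.71%). A gain near the motif was common among the genes tested: of 162 genes with enough edited reads near UGCAUG, 49 were called (30.2%), all of them higher, with a median of 0.91, and Celf2 ranked 19 of these by p. The filter on low counts asks for enough reads in 3 libraries, so a gene could enter through its RBFOX2-INSCRIBE libraries alone. That favours gains among the 162, so their share and median are no unbiased reference for Celf2. The edited reads of Celf2 farther than 50 nt from UGCAUG changed by 0.07 ± 0.09 (adjusted p = 0.817). From buffer to enzyme the near edited reads changed by 0.09 ± 0.23 (adjusted p = 0.935), where 0.392% of all features and 1 of the 162 near features (0.617%) were called. The call ended without RBFOX2-INSCRIBE replicate 3 (0.71, adjusted p = 0.101), enzyme-only replicate 1 (0.80, adjusted p = 0.0767) or enzyme-only replicate 2 (0.83, adjusted p = 0.0611), and it held without the 1-kb tile that had the most near reads (0.79, adjusted p = 0.0177). The mean number of reads covering the near sites was 35.2 ± 1.21 with antibody, 30.4 ± 1.65 with enzyme only and 33.4 ± 1.22 with buffer (SD, n = 3), and farther sites had 37.3 ± 3.57, 32.0 ± 1.31 and 35.4 ± 1.73. The part of cover in the result was not tested. The edited share of covering reads at the near sites was 3.22% ± 0.0578 with antibody, 3.48% ± 0.322 with enzyme only and 3.18% ± 0.0707 with buffer. It overlapped between the RBFOX2-INSCRIBE and enzyme-only libraries, which differed in how many near sites were listed, 94, 71 and 102 against 44, 49 and 48. Only sites with an edited read are listed, most with 1, so this share depends on cover and is not a rate of editing.

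Celf4 was the only other member with enough edited reads near UGCAUG for the test. It had 7, 15 and 13 with antibody, 8, 5 and 9 with enzyme only and 13, 6 and 9 with buffer, and neither change was called (0.51 ± 0.46, edgeR adjusted p = 0.730, and -0.76 ± 0.48, adjusted p = 0.622). The other 6 genes had too few such reads, so a difference near the motif was not measurable for them at this depth.

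In Celf2, edited reads 51 to 200 nt from UGCAUG made up 12.96%, 11.6% and 9.77% of the edited reads of the gene in the RBFOX2-INSCRIBE, enzyme-only and buffer-only groups on average. From there to 500 nt the shares were 17.9%, 17.0% and 19.8%, and in both of these bins the RBFOX2-INSCRIBE and enzyme-only libraries overlapped. Beyond 500 nt the shares were 62.5%, 67.5% and 67.0%, and the RBFOX2-INSCRIBE libraries (60.7% to 64.4%) lay below the enzyme-only libraries (66.3% to 68.3%). In every group most edited reads of Celf2 thus lay beyond 500 nt from any UGCAUG. How much of the gene lies at that distance was not counted, so these shares have no expected value beside them.

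**Figure D3:**
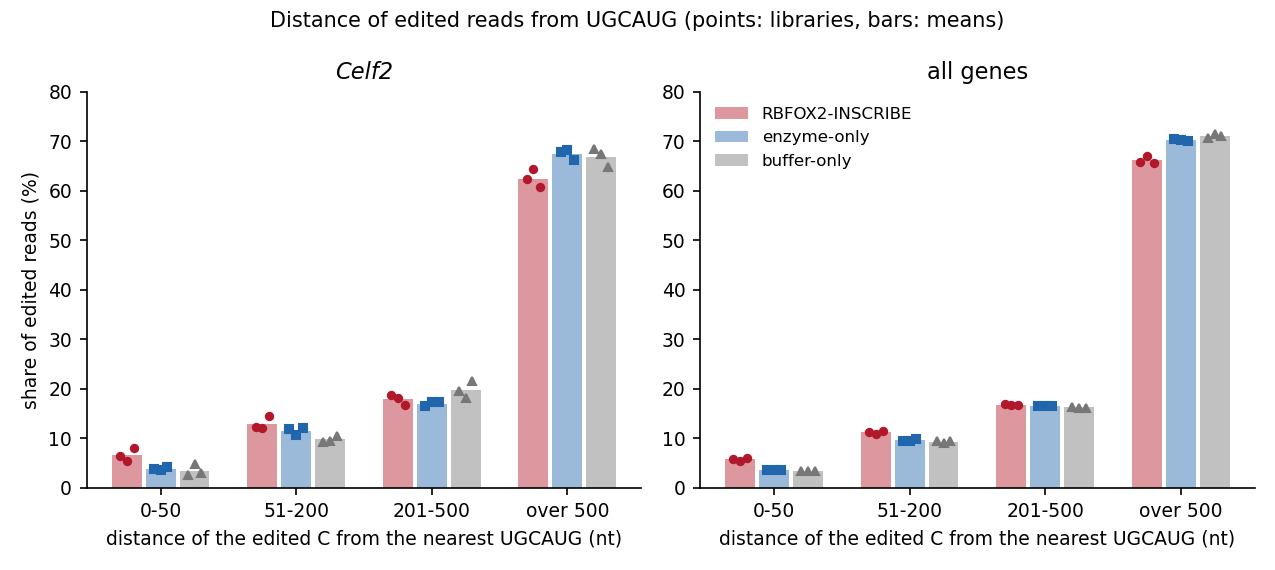
Share of edited reads by distance of the edited C from the nearest UGCAUG on the transcribed strand, in nt, for Celf2 (left) and for all genes (right); bars are group means and points the 3 libraries of each group. In the bin of 0 to 50 nt the 3 RBFOX2-INSCRIBE libraries of Celf2 lie at 5.36% to 7.97%, above the enzyme-only libraries at 3.64% to 4.21%.

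The near reads were spread over many copies of the motif. An edited read within 50 nt was seen at 71, 68 and 75 of the 425 copies in the RBFOX2-INSCRIBE libraries, at 49, 48 and 45 in the enzyme-only libraries and at 27, 39 and 28 in the buffer-only libraries. Copies seen in at least 2 libraries of their group numbered 51, 28 and 13. Copies seen in at least 2 RBFOX2-INSCRIBE libraries and in no other library numbered 30, against 2 for the enzyme-only group and 3 for the buffer-only group counted in the same way. Copies that lie close together, as in the row of motifs, can share the same edited reads and are still counted singly. These numbers are not scaled to depth, and the total of edited reads in genes went from 178493 to 311942 per library. Copies seen in all 3 libraries of a group were few: 5, 1 and 1.

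Motif cluster 1 had the most edited reads from the RBFOX2-INSCRIBE libraries of any member cluster in the confident RBFOX2-INSCRIBE list. At every listed site, which is how the confident clusters were counted here, it had 10, 1 and 11 edited reads in the RBFOX2-INSCRIBE libraries, 0, 0 and 2 in the enzyme-only libraries and 0 in each buffer-only library, so nearly all of them came from replicates 1 and 3. They lay at 8 cytidines from 0 to 47 nt from the motif, 7 of them 3′ of it, with 5, 4 and 4 reads at the 3 most edited (chr2 positions 6607072, 6607068 and 6607066). Motif cluster 2 had 3, 1 and 2 edited reads with antibody and 0 in the other 6 libraries. Motif cluster 3 had 4, 0 and 2 with antibody and 0 elsewhere. Motif clusters 4 and 5 rested on 2 edited reads and 1 edited read of RBFOX2-INSCRIBE replicate 3 alone, the last of them at the C of the motif itself.

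The row of 6 motifs overlaps no confident cluster, while the stretch around the single motif overlaps the confident RBFOX2-INSCRIBE cluster chr2:7149264-7149308, which ends short of the motif and had 2, 3 and 3 edited reads with antibody and 0 in the other libraries. The same stretch also overlaps the confident buffer-only cluster chr2:7149354-7149398. That cluster had 0, 1 and 1 edited reads with antibody, 0 with enzyme only and 1 in each buffer-only library, none within 50 nt of the motif. Within 50 nt of 1 motif of the row there were 3, 0 and 10 edited reads with antibody and none in the other libraries. Within 50 nt of the single motif there were 3, 3 and 3 with antibody and none in the others. The cluster without the motif, printed for comparison, had a like pattern with 4, 6 and 4 edited reads with antibody, 0, 0 and 1 with enzyme only and 0 with buffer, although no UGCAUG lies within 50 nt of it. At the cluster in every list 1 cytidine (chr2 position 6894747) was edited in all 9 libraries, in 6 of 25, 7 of 27 and 5 of 20 covering reads with antibody, 11 of 19, 1 of 19 and 7 of 24 with enzyme only and 3 of 24, 4 of 16 and 6 of 26 with buffer. It was the 1 member site listed in every library, and it was edited with no enzyme added.

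Confident clusters are those of 1 replicate that overlap clusters of the other replicates of the group. The 8 genes had 64 of 5177 in the RBFOX2-INSCRIBE list, 45 of 4542 in the enzyme-only list and 21 of 2092 in the buffer-only list, or 1.24%, 0.991% and 1.00% of each list. Celf2 had 54, 36 and 19 of them. Celf4 had 4 in the RBFOX2-INSCRIBE list and 0 in the others, Elavl3 had 2, 1 and 0, Elavl4 1, 4 and 0, Celf1 2 in each list, Elavl1 1, 1 and 0, Elavl2 0, 1 and 0, and Celf5 none. The cleaned RBFOX2-INSCRIBE list, from which the authors removed background clusters, kept 63 of the 64 and lost the cluster found in every list.

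**Figure D4:**
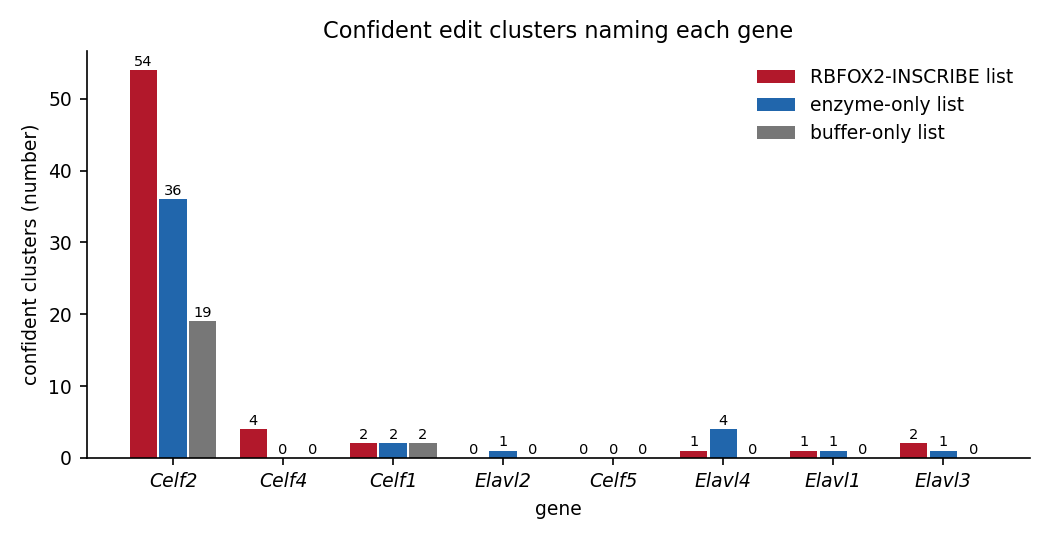
Number of confident edit clusters that name each of the 8 genes in the list of each group (1 list per group, made from 3 libraries, so there is no error bar). Celf2 has 54, 36 and 19, and no other gene has more than 4.

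The confident lists rest on few reads. Every one of the 5177, 4542 and 2092 intervals is also an interval in the cluster list of replicate 3 of its group, while 787 and 821 of the RBFOX2-INSCRIBE intervals occur in the lists of replicates 1 and 2. Of the 64 member clusters in the RBFOX2-INSCRIBE list, 31 had edited reads of all 3 libraries within them, 23 of 2 and 10 of 1, and 30 had no edited read in the other groups. So did 12 of the 45 in the enzyme-only list and 6 of the 21 in the buffer-only list. Each list was made from its own group's reads, and these numbers are not scaled to depth. The share over the whole lists was not counted. The middles of the 64 lay in introns in 56 cases, in 3′ UTRs in 4 and in other exons in 4. Member clusters shared between lists numbered 2 for RBFOX2-INSCRIBE and enzyme-only (3.12% and 4.44% of each), 1 for RBFOX2-INSCRIBE and buffer-only and 1 for enzyme-only and buffer-only, overlapping by at least 1 nt.

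UGCAUG lay in 5 of the 64 member clusters of the RBFOX2-INSCRIBE list (7.81%, Wilson 95% interval 3.38% to 17.0%, counting error only), all in Celf2, and in 0 of 45 and 0 of 21 in the other lists. Over the whole lists the shares were 8.09%, 1.959% and 1.099%. With 50 nt added on each side, the motif was in 8, 3 and 1 member clusters, against 15.9%, 5.59% and 4.35% of the whole lists. In the larger lists of single libraries, 2.49%, 2.10% and 3.62% of member clusters held UGCAUG with antibody, 1.71%, 1.69% and 1.90% with enzyme only and 1.45%, 2.14% and 1.96% with buffer, and all clusters of these libraries held it in 2.42% to 2.63%, 1.57% to 1.62% and 1.46% to 1.55%. Member clusters per library numbered 1514 ± 91.5 with antibody, 1321 ± 96.0 with enzyme only and 1134 ± 151 with buffer (SD, n = 3). Per 1000 clusters of the library they were 7.07 ± 0.257, 7.12 ± 0.333 and 7.29 ± 0.356, which overlapped.

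The confident clusters of the other genes held few reads. The best of Elavl3, the HuC gene (chr9:22047691-22047735, intron), had 1, 4 and 1 edited reads with antibody and none elsewhere. That of Elavl4 (chr4:110204053-110204097, 3′ UTR) had 2, 1 and 1 with antibody and 0, 0 and 2 with enzyme only. That of Elavl1 (chr8:4289568-4289597, 3′ UTR) had 1, 1 and 1 with antibody and 0, 1 and 0 with enzyme only. Celf4 had 1, 0 and 1 with antibody in its best intronic cluster, and Celf1 (chr2:90954402-90954446, intron) had 0, 1 and 1 with antibody, 1 in enzyme-only replicate 1 and 1 in buffer-only replicate 3. None of these 5 clusters holds UGCAUG.

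Position within the genes was tested on stranded tiles of 1 kb that do not depend on the clusters. Of filtered sites, 208 tiles of the genome had enough reads and edgeR called 33 (15.9%) between RBFOX2-INSCRIBE and enzyme-only libraries, but no tile of the 8 genes passed the filter on low counts (from buffer to enzyme 1.92% were called). With every listed site 8509 tiles were tested and 205 called (2.41%), and of 41 member tiles 2 were called and 26 were above 0. The filter could be met by the libraries of 1 group, which favours tiles that were high in that group. From buffer to enzyme 232 of 8509 were called (2.73%) and none of the 41, with 4 at an unadjusted p under 0.05.

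The tile with the smallest p lies in the 3′ UTR of Celf1 (chr2:91016001-91017000, plus strand). It had 45, 45 and 43 edited reads at listed sites with antibody, 12, 28 and 15 with enzyme only and 28, 14 and 9 with buffer. The RBFOX2-INSCRIBE libraries lay above all the others, a pattern that was not counted over all tiles. The log2 change was 1.25 ± 0.26 (edgeR adjusted p = 3.97e-04), it stayed called without any 1 of the 6 libraries (0.99 to 1.62, adjusted p up to 0.0369), and from buffer to enzyme it was -0.35 ± 0.31 (adjusted p = 0.683). Reads are deep there and edits rare: the mean cover of the listed sites was 260 ± 41.9, 242 ± 39.0 and 235 ± 88.8, and the edited share of covering reads over these sites 0.511% ± 0.0726, 0.532% ± 0.0985 and 0.555% ± 0.194 in the RBFOX2-INSCRIBE, enzyme-only and buffer-only groups. The groups thus differed in how many sites were listed, 38, 30 and 34 against 11, 19 and 12 and then 25, 12 and 7, and overlapped in the share edited per listed site. That share covers only sites with an edited read, so it does not measure how often all cytidines of the tile were edited. The site filter of the methods left 1, 17 and 4 edited reads with antibody, 0, 4 and 5 with enzyme only and 2, 5 and 2 with buffer. These filtered numbers overlapped between the groups and were too low to test, so the call holds for every listed site only. Within the tile 1 cytidine (chr2 position 91016357) was listed in all 3 RBFOX2-INSCRIBE libraries, with 2 of 489, 2 of 614 and 3 of 434 covering reads edited, and in no other library. It stands at base 15 of this 30-base stretch, chr2:91016343-91016372, in which capitals mark each listed C, and the nearest UGCAUG is 1098 nt away.
Celf1 3′ UTR site: ggCagttggatgttCtCttggtgtcCttCa

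The other called tile holds motif cluster 1 of Celf2 (chr2:6607001-6608000, minus strand). At every listed site it had 25, 16 and 21 edited reads with antibody, 7, 11 and 6 with enzyme only and 3, 2 and 4 with buffer. The groups did not overlap there, a pattern that was not counted over all tiles. The site filter left 19, 5 and 13 with antibody, 4, 6 and 3 with enzyme only and 0, 1 and 1 with buffer. After the filter the RBFOX2-INSCRIBE and enzyme-only libraries overlapped. The log2 change was 1.34 ± 0.38 with antibody against enzyme only (edgeR adjusted p = 0.0302) and 0.91 ± 0.57 from buffer to enzyme (adjusted p = 0.494). The tile could pass the filter on low counts through the RBFOX2-INSCRIBE libraries alone, where it was high. Its entry to the test was therefore not independent of the change. The call ended without RBFOX2-INSCRIBE replicate 1 (adjusted p = 0.174) or 3 (0.151) and without enzyme-only replicate 1 (0.165) or 3 (0.106).

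**Figure D5:**
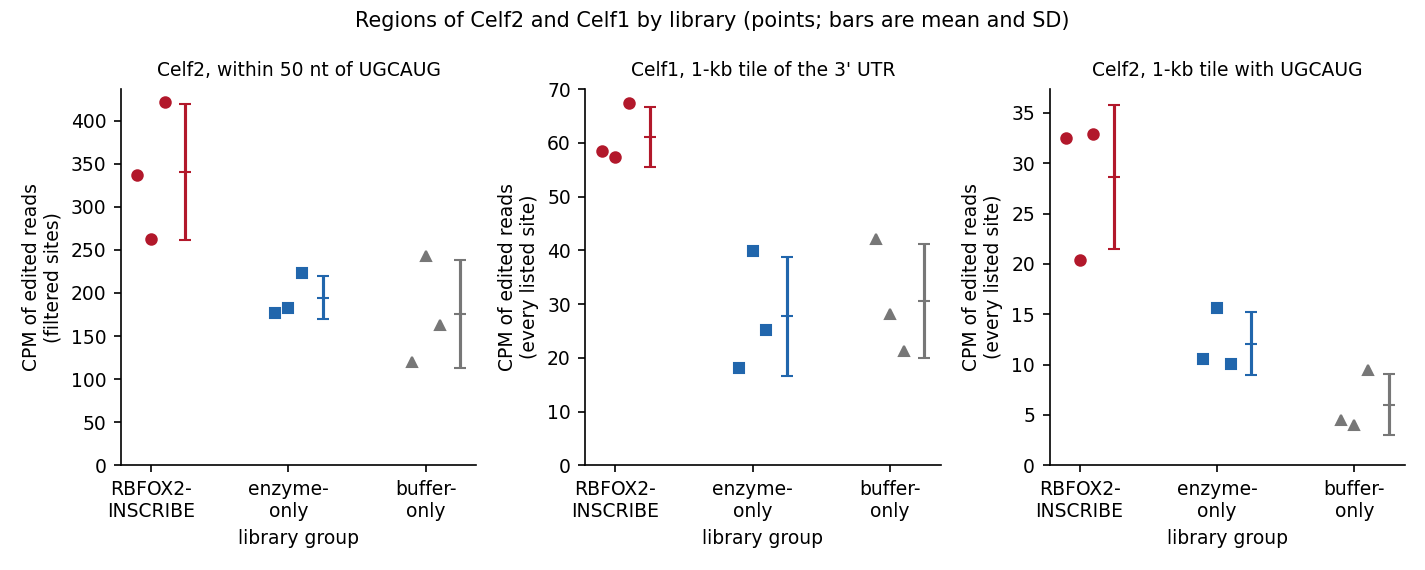
CPM of edited reads by library within 50 nt of UGCAUG in Celf2 (left, filtered sites, scaled to the edited reads in genes) and in the called 1-kb tiles of Celf1 (middle) and Celf2 (right), both of every listed site and scaled to all listed edited reads; bars are the mean and SD of 3 libraries. In each panel all 3 RBFOX2-INSCRIBE libraries lie above all other libraries, a pattern that was not counted over other genes or tiles.

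Single sites recurred seldom. Of 18300 sites listed in the 8 genes, 16160 were listed in 1 library, 1629 in 2, 373 in 3 and 138 in 4 or more. Sites listed in all 3 libraries of a group and in no other library numbered 11 for RBFOX2-INSCRIBE, 5 for enzyme-only and 2 for buffer-only. The 11 were 7 in Celf2, 2 in Celf4 coding exons, 1 in the 3′ UTR of Celf1 and 1 in the 3′ UTR of Elavl3, and 1 of them, in motif cluster 1, was within 50 nt of UGCAUG. The numbers by group are not scaled to depth, and sites of all genes were not counted in this way. Libraries listed 436039 to 533844 sites with antibody, 412827 to 482060 with enzyme only and 281561 to 448556 with buffer. The share of covering reads that was edited, over all filtered sites of the 8 genes, was 3.28% ± 0.25, 3.66% ± 0.195 and 3.40% ± 0.12 (SD, n = 3) in the RBFOX2-INSCRIBE, enzyme-only and buffer-only groups, and the first 2 overlapped (exact two-sided permutation p = 0.2, smallest possible 0.1). Only sites with an edited read are listed, and 88.4% to 91.3% of filtered sites over all genes rest on 1. The share therefore depends on cover, and this test cannot decide whether the antibody changed the rate of editing.

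Other genes of neuronal RNA-binding proteins were set beside these from a list of 40, of which 38 were tested. In RBFOX2-INSCRIBE against enzyme-only libraries 28 were above 0 with a median log2 change of 0.20. Of these 1 was called, the RBFOX family gene Rbfox1 (0.32 ± 0.09, edgeR adjusted p = 0.0450). Rbfox1 had 1836, 1805 and 1688 edited reads with antibody, 1185, 1381 and 1257 with enzyme only and 1317, 939 and 1071 with buffer. In CPM these were 5899, 5786 and 6182, then 4665, 5161 and 5092, and then 5465, 5078 and 6000. The antibody and buffer libraries thus overlapped in CPM, and the change of Rbfox1 from buffer to enzyme was -0.24 ± 0.09 (edgeR adjusted p = 0.240). From buffer to enzyme 23 of the 38 were above 0 with a median of 0.08, and 2 were called, Qk, which encodes the glial splicing factor quaking (0.76 ± 0.15, adjusted p = 0.00266), and Nova1, which encodes a neuronal splicing factor (-0.56 ± 0.14, adjusted p = 0.0427). Markers of cell types differed between the slices too. The summed CPM of edited reads of 8 neuron markers were 9332 to 9702 with antibody, 8408 to 9102 with enzyme only and 8350 to 9367 with buffer, all 8 with a change above 0 with antibody and none called. Markers of striatal neurons were at 1790 to 2762, 1126 to 1434 and 1152 to 1485, with 3 of the 5 tested called higher with antibody. Those of astrocytes were at 1616 to 2172, 1748 to 1925 and 1261 to 1394, those of oligodendrocytes at 369 to 487, 604 to 628 and 469 to 577, those of microglia at 157 to 209, 186 to 268 and 158 to 230, those of endothelial cells at 249 to 301, 271 to 311 and 208 to 243, and all 3 of the choroid plexus were at 0. The part of such differences in the results of the 8 genes was not tested.

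The genes whose CPM of edited reads followed those of Celf2 most closely over the 9 libraries, out of 2810 genes that averaged 20 or more edited reads, were Gfod1 (Pearson r = 0.948), A330076H08Rik (0.919) and Rtn1 (0.907). For Celf4 they were Adarb2 (0.914), Dpysl2 (0.909) and C230057M02Rik (0.894), and for Celf1 they were Usp15 (0.916), Ascc3 (0.913) and Rbm25 (0.836). The points are the same 9 libraries each time and share their depth and tissue, and these are the highest of 2810 values, so they are given as a description only.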

How the data were processed

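The members and gene lists were chosen with earlier results of these data known. The authors trimmed reads with cutadapt, aligned them to mm10 with STAR, called C-to-U sites with SAILOR and clusters with FLARE, and intersected the clusters of 3 replicates with bedtools. The deposited site lists give counts of edited and covering reads, the fraction edited and a confidence score per site. The deposited cluster lists give a score, read depth as a signal, and in the confident lists adjusted p-values. 0 columns of per-sample values were left unused.

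Sites scoring above 0.5 with under 0.8 of reads edited were assigned on their strand to GENCODE M21 genes (GRCm38), leaving out sites in more than 1 gene. Edited reads per gene, part, 1-kb tile and distance from UGCAUG were tested with edgeR 4.0.16 (quasi-likelihood, TMM, filterByExpr) in 1 fit of 9 libraries. Adjusted p under 0.05 was called. DESeq2 1.42.0 was an alternative. In counts simulated for RBFOX2-INSCRIBE against enzyme-only (6195 genes tested), 52% of the 2-fold and 94% of the 4-fold changes were recovered. All 3885610 listed sites on the chromosomes are a C in the genome. Replicates differed beyond sampling noise (chi-square per degree of freedom 1.38 to 1.84). Edited reads per library, 178493 to 311942, limit precision, and 88.4% to 91.3% of sites rest on 1 edited read. All 8 members and up to 8 motif clusters were named, with other genes if called, the tiles if called, and the 3 closest genes of the 3 members with the most edited reads.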

Additional observations from a re-analysis of the deposited data

How the results depend on the processing

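No whole-gene call was made for Celf1, Celf4, Celf5 or any ELAVL gene in either comparison under any of 15 settings, and Celf2 was called in 1, every listed site (log2 change 0.28, adjusted p = 0.0498). Signs changed in some settings for 9 of the 16 member changes. Over all genes, 59 calls with antibody against enzyme only became 162 with every listed site, 156 with sites in labelled clusters and 34 with mean cover as an offset, and 26 to 68 without 1 replicate. From buffer to enzyme, 42 became 131 with every listed site, 15 at a cover of at least 20 reads, 14 with the offset and 11 to 35 without 1 replicate. For gene parts, 94 and 59 became 348 and 176 with every listed site, and 30 to 100 and 10 to 53 without 1 replicate. For tiles, 33 became 205 with every listed site, 19 with 500-nt tiles and 14 to 43 without 1 replicate. Celf2 near UGCAUG went from 0.71 to 1.02 with antibody against enzyme only and from -0.14 to 0.40 from buffer to enzyme without 1 replicate, the last without a call. Member clusters per library had a ratio of 1.15 (RBFOX2-INSCRIBE over enzyme-only, 1.11 to 1.19 without 1 replicate) and 0.992 per 1000 clusters. The edit fraction of the members differed by -0.381 percentage points, by -0.019 with every listed site, by -0.127 at a cover of at least 20 reads and by -0.494 to -0.247 without 1 replicate. The causes were not tested.

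Same-numbered libraries of different groups did not deviate together (r from -0.058 to 0.061 over 9 pairs). With the replicate block 65 and 46 genes were called, 90 and 58 gene parts and 30 tiles, and Celf2 near UGCAUG changed by 0.87 (adjusted p = 0.00698). The limit on cluster p-values per library was not run, since those lists hold no p. The fraction at unlisted sites is not known. The depth leaves most members with under 100 edited reads per library.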
